A study of Danio rerio with 54 samples.

Results

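Light-damaged zebrafish retinas were compared across the 12 h that separate 24 and 36 h post light (hpl), counted from the onset of the light treatment. The comparison rests on 12 of the 54 libraries of the series, the 6 labelled 36 hpl and the 6 labelled 24 hpl, and these were chosen by their labels alone. Each library is 3′ mRNA-seq of the whole retina of one adult fish, in which reads are taken from the 3′ ends of polyadenylated transcripts. All fish were of the albino (alb) strain, 6 to 9 months old, and both groups had been kept in the dark for 5 days, then exposed for 30 min to very bright white light and then held under continuous halogen light until harvest. By the labels the groups differ in how long they had been in the light, and both were still in it, since the constant light lasted until 72 h. The study was run as 2 experiments with 3 fish per group in each, but the labels do not say which library came from which. Replicates 1 to 3 are taken here as experiment 1 and replicates 4 to 6 as experiment 2, and this split is an assumption. The labels also give neither the hour of the day at which the light came on nor the sex of the fish. Because the groups lie 12 h apart, the length of the exposure and the hour of the body clock cannot be told apart.

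Intense light kills rods and cones, and in the zebrafish the Müller glia, the radial glial cells of the retina, answer this loss by re-entering the cell cycle. They replicate their DNA, divide, and give rise to progenitors that later form new photoreceptors. The retina also carries its own circadian clock, in which the activators Bmal and Clock drive repressors of the Per, Cry and Rev-erb families that then switch the activators off.

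Counted reads per library ran from 1629543 to 2251694 at 24 hpl and from 1730921 to 4040445 at 36 hpl, with a ratio of the means of 1.36 (two-sided exact permutation test, p = 0.091, n = 6 and 6). Within a time, libraries taken as the same experiment correlated at r = 0.937 to 0.969 over genes on the log2 scale and libraries of different experiments at 0.897 to 0.931. The experiments, so taken, differed in 3627 genes, and every test below therefore carries a term for experiment. Levels are given in CPM, the reads of a gene relative to all reads of its library on a common scale, adjusted by the trimmed mean of M-values, as the lowest and highest of the 6 libraries with their median. They can be compared between libraries for a gene, but not between genes. Fold changes are log2 values of 36 over 24 hpl, each with a standard error. This error is the size of the change divided by the square root of edgeR's quasi-likelihood F statistic. Adjusted p is the Benjamini-Hochberg value of the same quasi-likelihood test over 11853 genes. Rod, cone, Müller glia, bipolar and amacrine cell markers were detected in all 12 libraries. The lens crystallins cryaa and crygm2d1 were at 0 in 9 and in 12 of the libraries. Other lens crystallins, among them crybb3, cryba4, crygm2d3 and crygs4, had at least 5 reads in at least 6 of the 12 libraries. The lens gene mipa was read in all 12, at 8.03 to 13.96 CPM at 24 hpl and 4.65 to 8.73 CPM at 36 hpl. Markers of muscle (ckma, mylpfa), epidermis (krt4, krt5) and erythrocytes (hbaa1) were also read in all 12. Markers of the pigment epithelium were present, with rpe65a at 208 to 1161 CPM at 24 hpl and 580.4 to 1435 CPM at 36 hpl.

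Between 24 and 36 hpl, 1049 genes rose and 948 fell at an adjusted p below 0.05, which is 8.85% and 8.0% of the genes tested. At least 2-fold changes were found for 339 of the rises and 217 of the falls, and at least 4-fold changes for 94 and 29. In 397 genes (3.35%) all 6 libraries of 36 hpl lay above all 6 of 24 hpl, and in 322 genes (2.72%) all lay below. These shares are the background for the counts of each list. The median log2 fold change over all genes was -0.00479. The 10 largest rises among genes with clear levels and separate groups were prc1b, ube2c, cks2, hes2.2, cdk1, nfil3-5, birc5a, tacc3, foxn4 and top2a. Of these, 7 act in cell division, hes2.2 and foxn4 are transcription factors, and nfil3-5 belongs to a family of clock-linked repressors. The 10 largest falls were ciarta, nr1d1, prkg2, aqp8a.1, cry2, dbpa, ncaldb, bhlhe41, dbpb and abcc2, of which 6 are genes of the clock or its output.

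**Figure D1:**
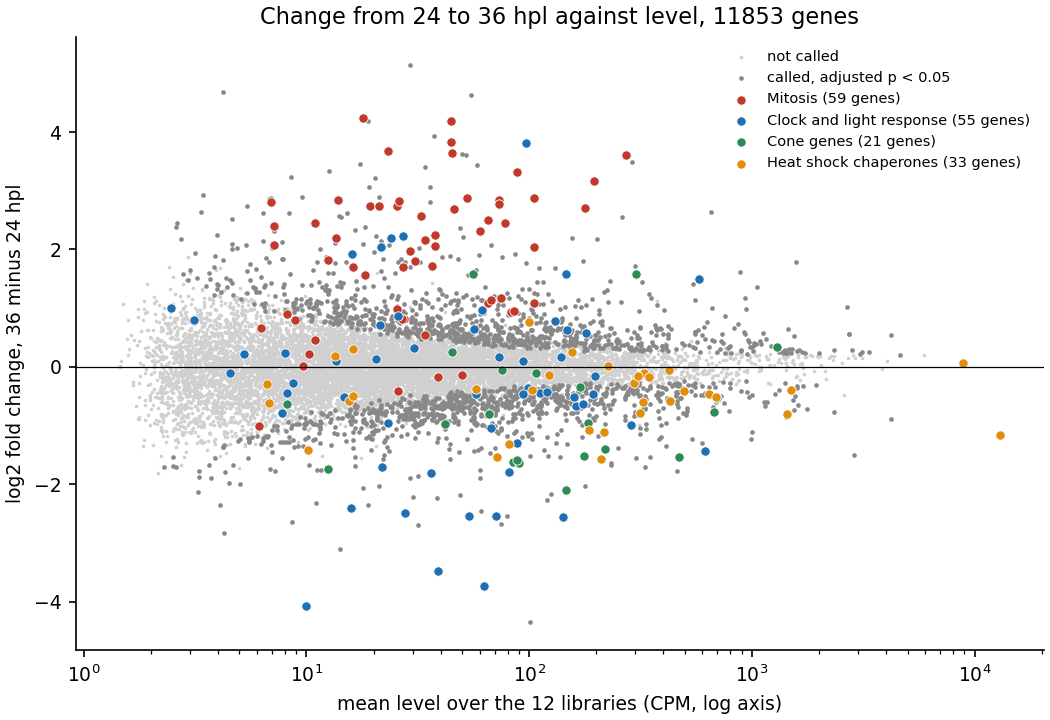
Log2 fold change of 36 over 24 hpl against the mean level of each gene over the 12 libraries in CPM on a log axis, with 4 gene lists coloured. Of the mitosis genes 55 of 59 lie above 0, up to 4.23, clock genes lie on both sides from -4.06 to 3.81, and most cone and heat shock genes lie below 0.

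Genes of mitosis rose together. Of the 59 tested members of the mitosis list, 49 rose, none fell and 10 did not pass the test, with a median log2 fold change of 2.08, against 8.85% of all genes and a median near 0. In 43 of the 59 all 36 hpl libraries lay above all 24 hpl libraries, as they did in 3.35% of all genes. Summed over the list, the level was 923.3 to 1369 CPM at 24 hpl and 4110 to 5036 CPM at 36 hpl. Leaving out single libraries kept the rises within 1.5 times this count, and without replicate 1 of 36 hpl 1 member was called lower.

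The gene top2a, for the topoisomerase that untangles replicated chromosomes, was at 28.98 to 48.01 CPM at 24 hpl (median 45.02) and 426 to 584 CPM at 36 hpl (median 494). All 36 hpl libraries were several times above all 24 hpl libraries, a change of 3.61 ± 0.14 (adjusted p = 2.6e-13, edgeR), with 3.76 in experiment 1 and 3.47 in experiment 2. The proliferation marker mki67 was at 28.1 to 47.6 CPM at 24 hpl (median 39.5) and 310.2 to 429 CPM at 36 hpl (median 338), a 9.01-fold rise with no overlap (adjusted p = 2.6e-13, edgeR). Levels of tpx2, for a factor that builds the spindle, were 38.2 to 59.6 CPM at 24 hpl (median 46.5) and 246 to 381 CPM at 36 hpl (median 305). For aspm, a protein of the spindle poles, they were 18.3 to 30.4 CPM at 24 hpl (median 27.04) and 129 to 264 CPM at 36 hpl (median 183). Both separated the 2 times completely, with log2 fold changes of 2.70 ± 0.12 and 2.88 ± 0.14. The kinase that drives entry into mitosis, cdk1, was at 2.87 to 8.34 CPM at 24 hpl (median 5.88) and 47.4 to 105 CPM at 36 hpl (median 87.8). Its level at 36 hpl was higher in experiment 2 than in experiment 1, and the step was 3.97 and 3.70 in them.

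The largest rises of the list came from genes that were close to the detection floor at 24 hpl. The gene prc1b, which bundles microtubules in the dividing cell, was at 0 to 3.399 CPM at 24 hpl (median 1.61) and 26.2 to 45.5 CPM at 36 hpl (median 32.1), with no read in 1 library at 24 hpl. The ubiquitin-conjugating enzyme gene ube2c, needed to leave mitosis, was at 2.97 to 5.96 CPM at 24 hpl (median 4.500) and 35.6 to 129 CPM at 36 hpl (median 85.9). Fold changes were 18.8 and 18.3. Survivin, encoded by birc5a, stood at 1.19 to 4.32 CPM at 24 hpl (median 3.65) and 19.6 to 61.7 CPM at 36 hpl (median 44.1), and the spindle gene tacc3 at 3.78 to 11.4 CPM at 24 hpl (median 6.35) and 61.3 to 98.4 CPM at 36 hpl (median 85.6). The cdk1 partner cks2, which was not on the list, stood at 0 to 3.76 CPM at 24 hpl (median 1.68) and 21.1 to 54.1 CPM at 36 hpl (median 35.1), with no read in 2 libraries at 24 hpl. None of these 5 genes overlapped between the times, with log2 fold changes between 3.65 and 4.23.

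**Figure D2:**
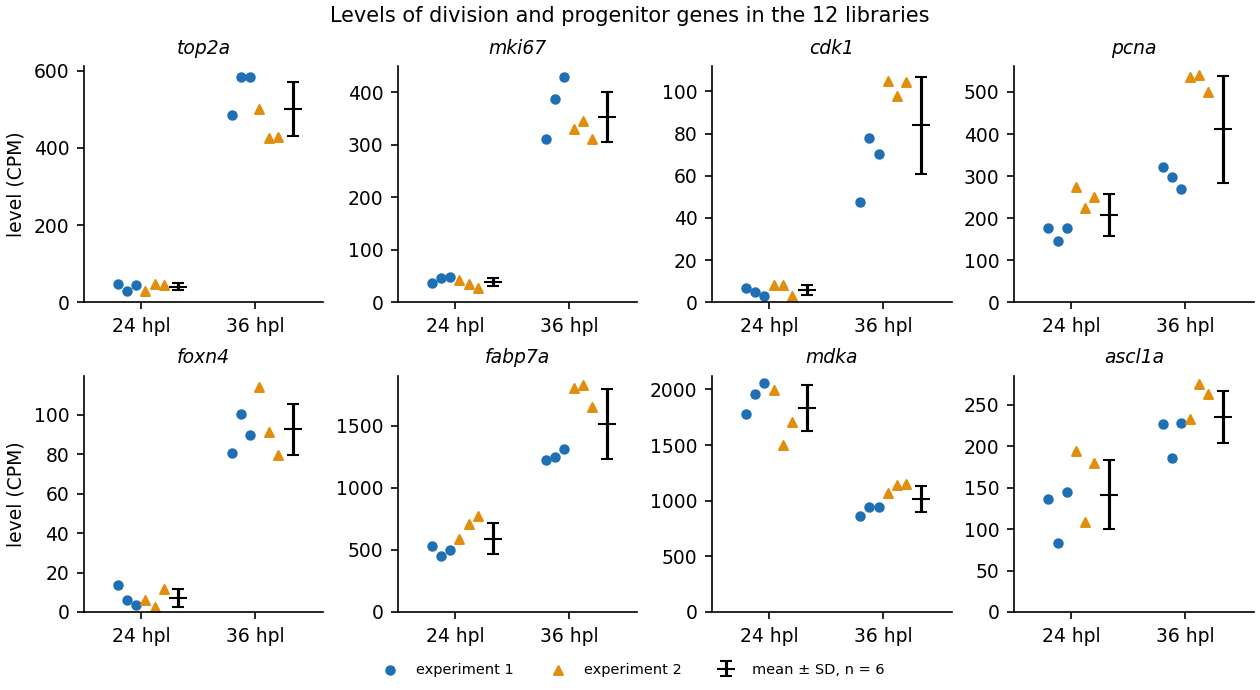
Level in CPM of 8 genes in each of the 12 libraries, with experiment 1 as circles, experiment 2 as triangles and the mean ± SD (n = 6) as a bar. The groups are separate for top2a, mki67, cdk1, foxn4, fabp7a and mdka, and they overlap for pcna and ascl1a.

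DNA replication genes rose too, with a lower median. In the list for the replication fork and S phase, 21 of 36 members rose and 2 fell, or 58.3% and 5.56% against 8.85% and 8.0% of all genes, with a median of 0.52. The sliding clamp gene pcna was at 146 to 275 CPM at 24 hpl (median 201) and 269 to 541 CPM at 36 hpl (median 412). The groups overlapped across the experiments but not within either, experiment 2 being higher at both times, and the step was 0.84 and 1.07 in experiments 1 and 2 (pooled 0.95 ± 0.09, adjusted p = 2.2e-07, edgeR). The gene uhrf1, which keeps up DNA methylation at the fork, was at 44.7 to 76.6 CPM at 24 hpl (median 61.9) and 102 to 132 CPM at 36 hpl (median 114), and fen1, for the flap endonuclease, at 19.1 to 41.9 CPM at 24 hpl (median 22.03) and 41.3 to 69.9 CPM at 36 hpl (median 59.1). The histone mRNA-binding gene slbp was at 22.8 to 41.9 CPM at 24 hpl (median 31.2) and 45.9 to 71.1 CPM at 36 hpl (median 63.6). Rises were 0.92, 1.202 and 0.97 on the log2 scale, with overlap for fen1 alone among the 3. Against this direction, the clamp loader gene rfc5 was lower, at 80.7 to 97.7 CPM at 24 hpl and 34.4 to 59.8 CPM at 36 hpl.

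Replication licensing, the loading of the helicase before S phase, gave 6 rises and no falls among 22 members, with a median of 0.53. That was 27.3% and 0%, against 8.85% and 8.0% of all genes. The helicase subunit mcm7 was at 96.5 to 172 CPM at 24 hpl (median 128) and 192 to 237 CPM at 36 hpl (median 202) and the helicase cofactor cdc45 at 1.49 to 9.66 CPM at 24 hpl (median 6.56) and 12.9 to 28.6 CPM at 36 hpl (median 20.8). Both were separate between the times, with changes of 0.72 ± 0.13 and 1.77 ± 0.29. Among 33 genes of nucleotide synthesis 8 rose and 3 fell, or 24.2% and 9.09%, and the median was -0.03. The rises included enzymes that supply DNA precursors. The thymidylate synthase gene tyms was at 14.03 to 51.5 CPM at 24 hpl (median 21.7) and 82.97 to 145 CPM at 36 hpl (median 102), the dUTPase gene dut at 33.3 to 106 CPM at 24 hpl (median 51.6) and 129 to 294 CPM at 36 hpl (median 198) and the ribonucleotide reductase gene rrm1 at 33.3 to 80.5 CPM at 24 hpl (median 49.3) and 84.8 to 187 CPM at 36 hpl (median 134). None overlapped, and the folds were 4.23, 3.22 and 2.496. The 2 paralogs impdh1a and impdh1b, of guanine nucleotide synthesis, went opposite ways. Levels of impdh1a were lower (-0.67 ± 0.13), with 23.7 to 41.8 CPM at 36 hpl below 42.2 to 64.4 CPM at 24 hpl. Those of impdh1b rose by 1.12 ± 0.16 with no overlap, from between 19.5 and 36.7 CPM to between 52.35 and 74.3 CPM.

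The genes that open the cell cycle were called in both directions, and 16 did not pass the test. Of 21 tested G1 cyclins and regulators, 2 were higher and 3 lower at 36 hpl, or 9.52% and 14.3% against 8.85% and 8.0% of all genes. The median was 0.13. The list had 1 higher without replicate 2 of 36 hpl and 1 lower without replicate 3 of 24 hpl. Cyclin D1, ccnd1, was at 324 to 874 CPM at 24 hpl (median 477) and 248 to 569 CPM at 36 hpl (median 400.2). The groups overlapped, and the change of -0.42 ± 0.12 (adjusted p = 0.018, edgeR) lost its call without replicate 3 or 4 of 24 hpl, where adjusted p was 0.054 and 0.073. It was not called over 48 libraries either (adjusted p = 0.12, edgeR), a fit that left 1 fall in the list. The Myc gene mycb fell from between 210.4 and 248 CPM to between 118 and 179 CPM with no overlap, a change of -0.65 ± 0.11. The gene skp2, which marks the cyclin-dependent kinase inhibitor p27 for degradation, rose from between 15.02 and 19.4 CPM to between 23.8 and 35.5 CPM. From 0 h to 24 hpl, fitted over the 48 libraries of the time course, ccnd1 had changed by 3.02 and mycb by 2.04 on the log2 scale, both called higher.

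The steps on either side share libraries with the step from 24 to 36 hpl, and the values are set side by side. Over the same 48 libraries, 19.0% of 13075 genes rose and 17.7% fell from 0 h to 24 hpl, and 6.68% rose and 5.92% fell from 36 to 72 hpl. Replication licensing had 15 of 22 members higher at 24 hpl than at 0 h, and 0 higher and 2 lower at 72 than at 36 hpl. The replication fork had 15 of 36 higher at 24 hpl, and 1 higher at 72 hpl. Mitosis had 3 of 59 higher and 10 lower at 24 hpl than at 0 h, and 5 higher and 1 lower at 72 than at 36 hpl. On this scale the median changes of mitosis members were -0.20, 2.07 and 0.19 in the 3 steps.

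Genes of neurogenic progenitors rose in part. Of 52 tested members 24 rose and 3 fell, or 46.2% and 5.77% against 8.85% and 8.0% of all genes. The median was 0.43, and 1 fall was called without replicate 3 of 24 hpl. The gene foxn4, a transcription factor of retinal progenitors that in mice is needed for amacrine and horizontal cells, was at 2.38 to 13.6 CPM at 24 hpl (median 5.93) and 79.7 to 114 CPM at 36 hpl (median 90.6). This was a 12.4-fold rise in which the groups lay far apart (adjusted p = 1.5e-09, edgeR), with 3.49 and 3.80 in the experiments. Levels of hes2.2, of the Hes family of repressors and not on the list, were 0.5395 to 9.18 CPM at 24 hpl (median 5.23) and 51.9 to 104 CPM at 36 hpl (median 69.7). The fatty acid-binding protein gene fabp7a, a marker of radial glia and progenitors, stood at 448 to 774 CPM at 24 hpl (median 559) and 1227 to 1831 CPM at 36 hpl (median 1481). The receptor gene notch1a stood at 16.6 to 32.3 CPM at 24 hpl (median 23.6) and 32.98 to 93.2 CPM at 36 hpl (median 53.5), and six7, a homeobox gene of cone development, at 53.95 to 87.6 CPM at 24 hpl (median 71.2) and 97.9 to 215 CPM at 36 hpl (median 131). All of these were separate between the times, with changes of 1.35 ± 0.08, 1.25 ± 0.15 and 1.07 ± 0.14 for the last 3.

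The secreted growth factor gene mdka moved the other way, from between 1501 and 2061 CPM to between 862 and 1146 CPM with no overlap (-0.85 ± 0.09, adjusted p = 8.8e-07, edgeR). The proneural gene ascl1a, which Müller glia need to enter the cell cycle, was at 83.4 to 194 CPM at 24 hpl (median 141) and 186 to 275 CPM at 36 hpl (median 230.2). It rose by 0.74 ± 0.14 on the log2 scale with a small overlap, after a change of 5.19 from 0 h to 24 hpl. Further progenitor genes that the study names did not pass the test at this step. They were insm1a at 0.17 ± 0.32 (adjusted p = 0.77, edgeR), prdm1a at 0.33 ± 0.17 (adjusted p = 0.21) and notch1b at -0.24 ± 0.15 (adjusted p = 0.29). In the next step, from 36 to 72 hpl, these 3 changed by 4.03, 2.2 and 1.21, all called higher, and 34 of 54 members of the list were higher and 2 lower.

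Müller glia genes did not move as one. Of 29 tested members 5 rose and 4 fell, or 17.2% and 13.8% against 8.85% and 8.0% of all genes. The median was 0.02, and the falls numbered 2 without replicate 4 of 24 hpl or without replicate 6 of 36 hpl. The intermediate filament gene gfap was at 61.1 to 83.4 CPM at 24 hpl (median 70.7) and 48.1 to 92.5 CPM at 36 hpl (median 68.8). The groups overlapped almost fully, and the change was -0.06 ± 0.13 (adjusted p = 0.8, edgeR). The 2 glutamine synthetase genes went opposite ways. Levels of glula were 199.7 to 438 CPM at 24 hpl (median 289) and 330.5 to 607 CPM at 36 hpl (median 460.3), a change of 0.65 ± 0.11. Those of glulb were 286 to 791 CPM at 24 hpl (median 303) and 125 to 367 CPM at 36 hpl (median 263), a change of -0.70 ± 0.16, and replicate 4 of 24 hpl stood far above the other 5. The apolipoprotein gene apoeb, shared by glia and microglia, rose by 0.65 ± 0.12 and crabp1a, for a carrier of retinoic acid, by 1.07 ± 0.16, both with overlap. The stress-induced factor cebpd fell from between 36.9 and 128 CPM to between 8.14 and 22.2 CPM with no overlap (-2.18 ± 0.22).

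**Figure D3:**
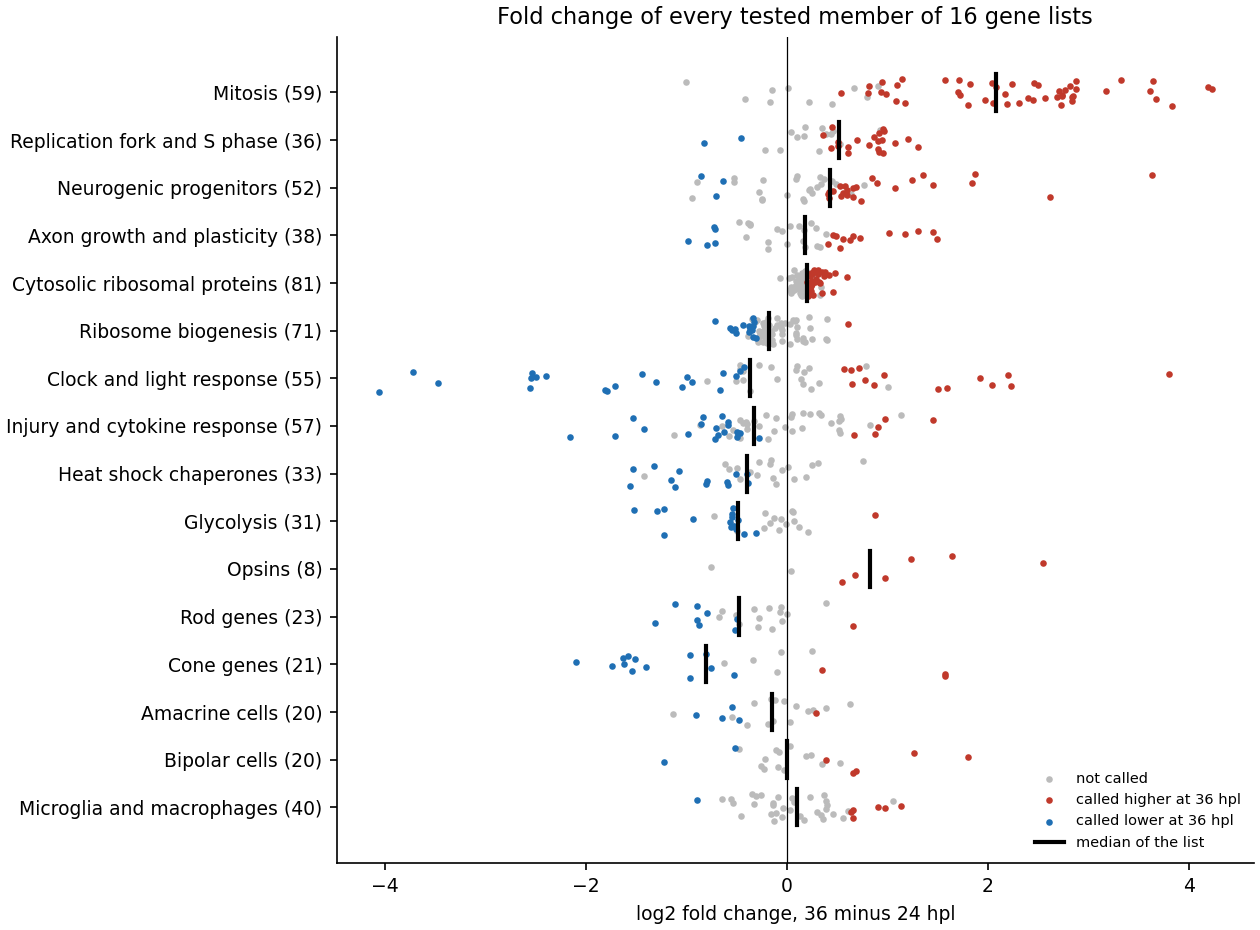
Log2 fold change of every tested member of 16 gene lists, with called genes in colour and the median of each list as a bar. The median is 2.08 for mitosis and 0.83 for opsins, and it lies at -0.80 for cone genes and -0.48 for glycolysis.

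Injury and cytokine genes fell more often than they rose. In the injury and cytokine list 18 of 57 members fell and 5 rose, or 31.6% and 8.77% against 8.0% and 8.85% of all genes. The median was -0.33. The immediate early gene fosab was at 174 to 244 CPM at 24 hpl (median 200.2) and 22.2 to 58.7 CPM at 36 hpl (median 52.5). The groups were separate, a change of -2.16 ± 0.15 (adjusted p = 7.5e-10, edgeR), with -2.26 and -2.05 in the experiments. The related fosl2 fell from between 715 and 943 CPM to between 429 and 622 CPM, the feedback inhibitor of cytokine signalling cish from between 140.0 and 213 CPM to between 50.8 and 84.1 CPM, and the factor klf6a from between 466 and 608 CPM to between 204 and 329 CPM. None of these overlapped. The injury-induced factor atf3 also fell, from between 2054 and 2543 CPM to between 932 and 1749 CPM (-0.71 ± 0.11), and the cytokine-activated transcription factor stat3 fell, with a change of -0.47 ± 0.10 and with overlap. From 0 h to 24 hpl these 6 genes had been called higher, with changes from 1.62 for fosl2 to 6.12 for atf3.

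The share of the list that rose lay near that of all genes. The matrix protease gene mmp9 was at 29.1 to 227 CPM at 24 hpl (median 112) and 119 to 569 CPM at 36 hpl (median 320.0), with wide spread in both groups and a change of 1.46 ± 0.30 (adjusted p = 0.0018, edgeR). The immediate early gene ier5l rose from between 30.8 and 45.9 CPM to between 53.6 and 93.1 CPM with no overlap. The Polycomb gene cbx7a, on no list, fell with no overlap, at 3561 to 4669 CPM at 24 hpl (median 4396) and 1122 to 2088 CPM at 36 hpl (median 1390.2).

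A part of the heat shock chaperones fell. Of 33 tested members 13 fell, none rose and 20 did not pass the test, with a median of -0.40. The falls were 39.4% of the list, against 8.0% of all genes. Without replicate 1 of 24 hpl or replicate 3 of 36 hpl, 1 member rose. The summed level was 34407 to 40137 CPM at 24 hpl and 18008 to 30410 CPM at 36 hpl, and the 2 ranges did not overlap. The cytosolic Hsp90 gene hsp90aa1.2 made up much of this sum, at 15233 to 22165 CPM at 24 hpl (median 17123) and 4336 to 10495 CPM at 36 hpl (median 8066) (-1.15 ± 0.15, adjusted p = 8.1e-06, edgeR). The Hsp70 cochaperone gene bag3 was at 57.2 to 182 CPM at 24 hpl (median 99.4) and 27.3 to 52.8 CPM at 36 hpl (median 31.7), the heat shock factor hsf2 at 104 to 124 CPM at 24 hpl (median 118) and 29.7 to 61.4 CPM at 36 hpl (median 44.5) and the mitochondrial chaperone gene hspa9 at 314 to 499 CPM at 24 hpl (median 387) and 208 to 301 CPM at 36 hpl (median 262). All 4 were separate between the times. Some falls differed between the experiments by the interaction test. The heat-induced hsp70.3, whose reads may be shared with near-identical copies, was at 114 to 481 CPM at 24 hpl (median 317) and 56.7 to 177 CPM at 36 hpl (median 145). Its change was -2.22 in experiment 1 and 0.01 in experiment 2, and the pooled call (-1.11 ± 0.32, adjusted p = 0.02, edgeR) was lost without replicate 1, 2 or 3 of 36 hpl, where adjusted p was 0.054, 0.058 and 0.073. Falls in the list numbered 4 in experiment 2 alone.

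The list for misfolded protein in the endoplasmic reticulum and the Atf4 response showed fewer changes, with 1 rise and 5 falls among 39 members. That was 2.56% and 12.8%, against 8.85% and 8.0% of all genes. It includes genes of amino acid synthesis such as asns, phgdh and psat1, and the chaperone genes hspa5 and hsp90b1 are on the heat shock list. The glutathione-degrading enzyme gene chac1 fell from between 224 and 442 CPM to between 89.2 and 168 CPM with no overlap. The stress factors atf4b and atf6 fell, with changes of -0.39 ± 0.09 and -0.55 ± 0.13, both with overlap. The rise was psat1, an enzyme gene of serine synthesis, from between 5.902 and 22.6 CPM to between 34.9 and 46.4 CPM with no overlap (1.84 ± 0.25).

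Ribosome genes split by role, by small amounts. Among 71 genes of ribosome biogenesis 15 fell and 1 rose, or 21.1% and 1.41% against 8.0% and 8.85% of all genes. The median was -0.18, and 2 rose without replicate 4 of 24 hpl. The count of falls was 3 in the fit over 48 libraries and 9 with the replicate numbers as a block, and it was 8 without replicate 6 of 24 hpl, 8 without replicate 2 of 36 hpl and 7 without replicate 6 of 36 hpl. The 40S maturation gene tsr1 had the smallest adjusted p of the falls (-0.54 ± 0.10, 0.00058 by edgeR). Of 81 ribosomal protein genes 80 had a log2 fold change above 0, as did 49.5% of all genes, and the median was 0.20. Among the 81, 30 rose and none fell, or 37% and 0% against 8.85% and 8.0% of all genes. That count was 1 in the fit over 48 libraries, 0 without the experiment term and 16 with the replicate numbers as a block, and it lay between 15 and 18 without replicate 2, 3 or 5 of 24 hpl or replicate 2, 4 or 5 of 36 hpl. The rise with the smallest adjusted p was rpl12 (0.46 ± 0.08), not called over 48 libraries (adjusted p = 0.071, edgeR). In all 81 genes the groups overlapped. Of 44 proteasome genes 3 rose and none fell, or 6.82% and 0% against 8.85% and 8.0% of all genes. Only 1 rose without replicate 5 of either time or with the block.

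Many genes of glycolysis fell. Of 31 tested members 15 fell and 1 rose, or 48.4% and 3.23% against 8.0% and 8.85% of all genes. The median was -0.48. The rise was lost without replicate 1 or 4 of 24 hpl or replicate 2 or 4 of 36 hpl. In 7 members all 36 hpl libraries lay below all 24 hpl libraries, as they did in 2.72% of all genes. Hexokinase, hk1, was at 666 to 896 CPM at 24 hpl (median 735) and 298 to 346 CPM at 36 hpl (median 323) (-1.22 ± 0.08, adjusted p = 7.5e-10, edgeR). The lactate transporter gene slc16a3 was at 107 to 196 CPM at 24 hpl (median 151) and 43.04 to 59.4 CPM at 36 hpl (median 51.3) and pfkfb3, for an enzyme that speeds up glycolysis, at 391 to 716 CPM at 24 hpl (median 508) and 181 to 296 CPM at 36 hpl (median 217). Lactate dehydrogenase, ldha, fell from between 369.6 and 431 CPM to between 235 and 307 CPM. All 4 were lower in every 36 hpl library than in any 24 hpl library. Photoreceptors rely on glycolysis, rod and cone genes fell in the same libraries (8 of 23 and 13 of 21), and their part in this fall was not tested. In whole retina, fewer cells of a type and less RNA per cell cannot be told apart, for these and for all genes of a cell type.

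The respiratory chain showed 10 rises and 4 falls among 81 members, or 12.3% and 4.94% against 8.85% and 8.0% of all genes. The rises numbered 2 over 48 libraries and 1 without the experiment term, and 6 or fewer rises were left without replicate 1, 3, 5 or 6 of 24 hpl or replicate 2, 4 or 5 of 36 hpl. The falls were sdha and sdhb, of the complex that oxidises succinate, cyc1, of the cytochrome bc1 complex, and cytochrome c, cycsb. Levels of sdhb were 208 to 356 CPM at 24 hpl (median 288) and 153 to 201 CPM at 36 hpl (median 172), with no overlap (-0.72 ± 0.09). Those of sdha and cycsb overlapped between the times, with changes of -0.81 ± 0.13 and -0.48 ± 0.08. The largest rise was cox4i2, an isoform of a cytochrome oxidase subunit, by 0.97 ± 0.13. Of 24 genes of cholesterol synthesis 2 rose and 3 fell, or 8.33% and 12.5% against the same shares of all genes. In this list 0 or 1 rose without replicate 2, 3, 5 or 6 of 24 hpl or replicate 2, 3 or 5 of 36 hpl.

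Most cone genes fell. Of 21 tested members 13 fell and 3 rose, or 61.9% and 14.3% against 8.0% and 8.85% of all genes, with a median of -0.80. In 10 all 36 hpl libraries lay below all 24 hpl libraries, as they did in 2.72% of all genes. The cone phosphodiesterase gene pde6c was at 526 to 953 CPM at 24 hpl (median 680.4) and 205 to 293 CPM at 36 hpl (median 233). The times were separate, a 2.899-fold fall (adjusted p = 7.7e-09, edgeR) with -1.34 and -1.72 in the experiments. The guanylate cyclase activator gene guca1c was at 143 to 324 CPM at 24 hpl (median 264) and 37.7 to 75.3 CPM at 36 hpl (median 54.3), the cone phosducin gene pdcb at 111 to 159 CPM at 24 hpl (median 139) and 37.6 to 57.2 CPM at 36 hpl (median 42.9) and the recoverin gene rcvrn3 at 178 to 403 CPM at 24 hpl (median 227) and 58.6 to 109 CPM at 36 hpl (median 95.1). None overlapped, and the folds were 4.28, 3.103 and 2.86. These 4 were called lower from 0 h to 24 hpl too, with changes of -3.42, -3.01, -5.07 and -1.55 on the log2 scale.

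The 3 cone genes that rose included 2 subunits of the cone transducin. The gamma subunit gngt2a was at 82.4 to 224 CPM at 24 hpl (median 166) and 326 to 606 CPM at 36 hpl (median 417) and the beta subunit gnb3a at 16.4 to 38.1 CPM at 24 hpl (median 27.6) and 71.2 to 96.6 CPM at 36 hpl (median 82.5). Both were separate between the times, with changes of 1.58 ± 0.15 and 1.58 ± 0.16. The inhibitory phosphodiesterase subunit pde6h changed by 0.35 ± 0.11 (adjusted p = 0.036, edgeR), and its call was lost without replicate 2, 3 or 5 of 24 hpl or replicate 1, 2, 3, 5 or 6 of 36 hpl, and with the replicate block (adjusted p = 0.062, edgeR). A further cone transducin subunit, gngt2b, did not pass the test (-0.10 ± 0.18, adjusted p = 0.75, edgeR).

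Rod genes fell in smaller number. Of 23 tested members 8 fell and 1 rose, or 34.8% and 4.35% against 8.0% and 8.85% of all genes, with a median of -0.47. The rod arrestin gene saga was at 126 to 302 CPM at 24 hpl (median 228) and 48.96 to 104 CPM at 36 hpl (median 84.9) and the phosducin gene pdca at 93.9 to 143 CPM at 24 hpl (median 117) and 45.3 to 62.8 CPM at 36 hpl (median 53.2). Both separated the times, with changes of -1.31 ± 0.18 and -1.12 ± 0.13. The retinol-binding protein gene rbp4l fell, with a change of -0.89 ± 0.09 and with overlap. The second rod arrestin gene, sagb, was at 56.1 to 207 CPM at 24 hpl (median 94.6) and 48.96 to 225 CPM at 36 hpl (median 95.9) and did not pass the test (-0.04 ± 0.17, adjusted p = 0.9, edgeR). The rise was gngt1, for the rod transducin gamma subunit (0.66 ± 0.16).

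Most opsin transcripts rose, while most of the rod and cone genes that were called fell. Of the 8 tested opsins 6 rose and none fell, or 75% and 0% against 8.85% and 8.0% of all genes. The median was 0.83. Reads of the near-identical green opsin copies, and of the red ones, may be shared between them. The green opsin gene opn1mw4 was at 46.5 to 112 CPM at 24 hpl (median 66.2) and 211 to 654 CPM at 36 hpl (median 432). All 36 hpl libraries lay above all 24 hpl libraries, a 5.84-fold rise (adjusted p = 1.5e-09, edgeR), with 2.196 and 2.89 in the experiments. The red opsin opn1lw1 was at 133 to 293 CPM at 24 hpl (median 198) and 285 to 729 CPM at 36 hpl (median 461), with a narrow overlap and a change of 1.24 ± 0.14. For the second red opsin, opn1lw2, the levels ran over 4.02 to 119 CPM at 24 hpl and 15.97 to 182 CPM at 36 hpl. Its change of 1.65 ± 0.48 lost the call without replicate 3 of 24 hpl or replicate 3 or 4 of 36 hpl, where adjusted p was 0.051, 0.08 and 0.057.

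The ultraviolet opsin opn1sw1 was at 90.9 to 227 CPM at 24 hpl (median 124) and 176 to 479 CPM at 36 hpl (median 249), the blue opsin opn1sw2 at 59.1 to 133 CPM at 24 hpl (median 92.3) and 87.1 to 227 CPM at 36 hpl (median 152) and rhodopsin, rho, at 1717 to 2867 CPM at 24 hpl (median 2204) and 2059 to 4514 CPM at 36 hpl (median 3191). Their groups overlapped, and the changes were 0.98 ± 0.23, 0.67 ± 0.15 and 0.55 ± 0.12, with adjusted p of 0.0051, 0.0035 and 0.0035 by edgeR. The green opsins opn1mw2 and opn1mw3 did not pass the test, at 0.05 ± 0.46 and -0.76 ± 0.32, with opn1mw3 called lower without replicate 2 of 24 hpl. The copy opn1mw1 had too few reads. From 0 h to 24 hpl all 9 opsins had been called lower, with a median change of -4.44. For opn1mw4 the changes in the 3 steps were -2.81, 2.59 and -0.86.

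**Figure D4:**
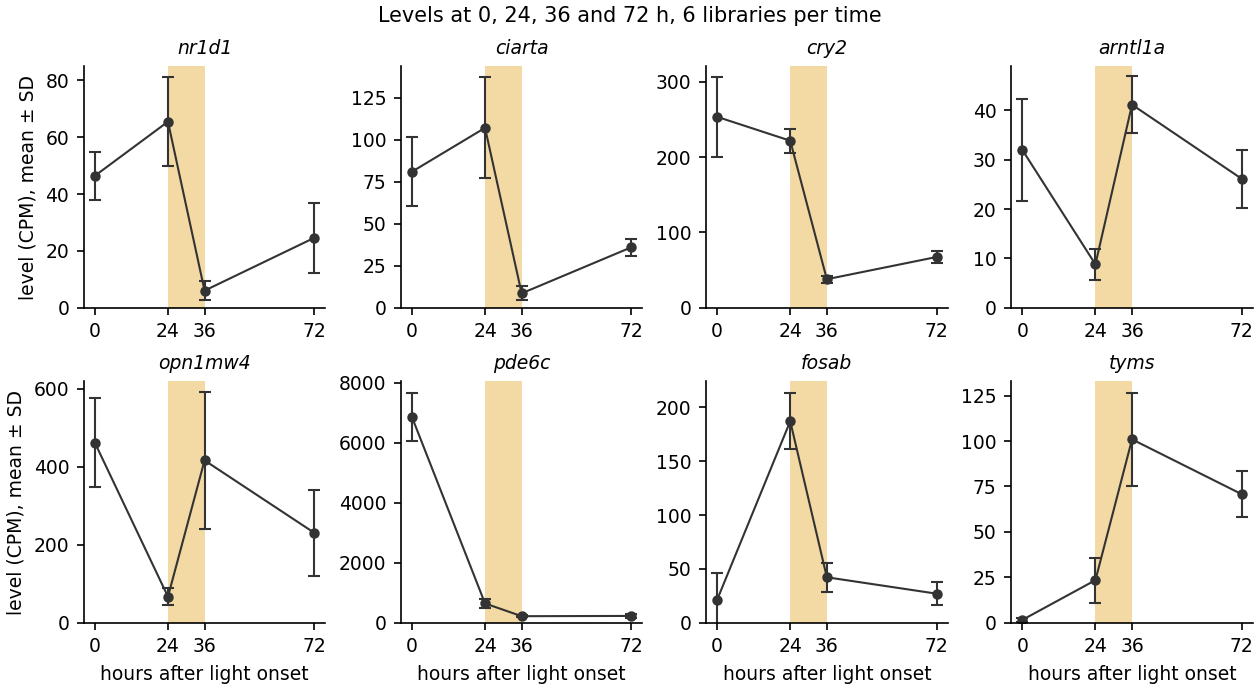
Level in CPM (mean ± SD, n = 6 libraries per time, scaled over 48 libraries) of 8 genes at 0, 24, 36 and 72 h after light onset, with the step from 24 to 36 hpl shaded. The clock genes nr1d1, ciarta and cry2 drop and arntl1a climbs in the shaded step, opn1mw4 climbs after its fall, and pde6c falls further.

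Of 17 photoreceptor transcription factors 3 rose and 1 fell, or 17.6% and 5.88% against 8.85% and 8.0% of all genes. The rises included six7, given above, and otx2, a factor of photoreceptors and bipolar cells, at 0.75 ± 0.17. The fall, which was joined by 1 more without replicate 5 of 24 hpl or replicate 6 of 36 hpl, was mef2cb, from between 66.3 and 90.6 CPM to between 32.6 and 56.1 CPM with no overlap.

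Clock genes were among the largest falls and rises of the step. Of 55 tested members of the clock and light list 21 fell and 14 rose, which is 38.2% and 25.5% against 8.0% and 8.85% of all genes. In 25 of them the groups did not overlap, 16 below and 9 above, where the shares of all genes were 2.72% and 3.35%. Several repressors of the clock and its output factors were low at 36 hpl. The repressor nr1d1, Rev-erb alpha, was at 55.6 to 101 CPM at 24 hpl (median 68.8) and 1.64 to 10.8 CPM at 36 hpl (median 6.99). That is an 11.11-fold fall with no overlap (adjusted p = 1.7e-08, edgeR), of -3.37 in experiment 1 and -3.57 in experiment 2. The repressor ciarta, known as Chrono in mice, was at 58.4 to 149 CPM at 24 hpl (median 129.9) and 2.35 to 14.4 CPM at 36 hpl (median 10.01), a 13.2-fold fall. The cryptochrome gene cry2 was at 219 to 257 CPM at 24 hpl (median 247) and 34.6 to 48.4 CPM at 36 hpl (median 41.4), with narrow spread at both times and a change of -2.55 ± 0.11. The repressor bhlhe41 was at 57.4 to 109 CPM at 24 hpl (median 107) and 11.5 to 21.6 CPM at 36 hpl (median 15.99). The output factors dbpa and dbpb, which act through D-box elements, were at 87.6 to 179 CPM at 24 hpl (median 113) and 10.4 to 27.3 CPM at 36 hpl (median 22.2) for dbpa and 30.4 to 69.4 CPM at 24 hpl (median 48.5) and 4.67 to 13.6 CPM at 36 hpl (median 7.53) for dbpb. All of these were separate between the times.

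The activator gene arntl1a, for Bmal1, rose, at 4.86 to 13.8 CPM at 24 hpl (median 8.89) and 36.00 to 51.6 CPM at 36 hpl (median 47.4) (2.23 ± 0.21, adjusted p = 1e-07, edgeR). The gene nfil3-5, for a repressor that binds the same D-box elements as Dbp, was at 6.47 to 17.8 CPM at 24 hpl (median 12.6) and 138 to 226 CPM at 36 hpl (median 172), a 13.98-fold rise. The cryptochrome genes cry1ba and cry1bb rose, from between 247 and 395 CPM to between 722 and 987 CPM and from between 59.7 and 95.5 CPM to between 146 and 284 CPM. None of the 4 overlapped. At the other steps, nr1d1 changed by 0.51 from 0 h to 24 hpl, not called, and by 2.16 from 36 to 72 hpl, called higher. For arntl1a these values were -1.88 and -0.68, both called lower. The sampled times 0, 24 and 72 h are whole days apart and 36 h is not, and the hour of the body clock and the time in the light cannot be told apart for these genes.

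For the inner retinal neurons the shares of called genes are set against those of all genes, 8.85% higher and 8.0% lower. Bipolar and ganglion cell rises and amacrine and horizontal cell falls lay above these shares. The other shares lay nearer to them, and the lists hold only 14 to 23 genes. Among 20 bipolar cell genes 5 rose and 2 fell, among 20 amacrine genes 1 rose and 4 fell, among 23 ganglion cell genes 5 rose and 3 fell, and among 14 horizontal cell genes 1 rose and 3 fell. In that order the shares were 25% and 10%, 5% and 20%, 21.7% and 13%, and 7.14% and 21.4%. The bipolar genes pcp4l1, bhlhe23 and vsx1 rose without overlap, from between 62.02 and 108 CPM to between 218 and 358 CPM, from between 29.3 and 74.05 CPM to between 87.2 and 168 CPM and from between 228 and 399 CPM to between 407 and 539 CPM. The calcium-binding protein gene cabp5a of the same cells fell, at 901 to 1946 CPM at 24 hpl (median 1459.8) and 448 to 696 CPM at 36 hpl (median 592), with no overlap (-1.22 ± 0.16). The acetylcholine-synthesising enzyme gene chata of amacrine cells fell, with a change of -0.91 ± 0.18 and with overlap, and calretinin, calb2a, fell from between 232 and 286 CPM to between 135 and 219 CPM. The rise of tfap2a, shared by the amacrine and horizontal lists, was 0.29 ± 0.09 and lost its call without replicate 1, 3 or 5 of 24 hpl or replicate 2, 3, 4 or 6 of 36 hpl, and with the replicate block (adjusted p = 0.064, edgeR), so that neither list then held a rise.

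The neurofilament genes neflb and nefma fell, with neflb at 53.9 to 78.7 CPM at 24 hpl (median 65.5) and 19.2 to 26.9 CPM at 36 hpl (median 20.9) and nefma at 151 to 177 CPM at 24 hpl (median 166) and 80.9 to 141 CPM at 36 hpl (median 107), both separate. The further neurofilament gene nefmb was tested and was not called lower. The RNA-binding protein gene elavl4, for HuD, was at 1640.1 to 2362 CPM at 24 hpl (median 1894) and 1038 to 1415 CPM at 36 hpl (median 1111), with no overlap (-0.74 ± 0.10, adjusted p = 1.2e-05, edgeR). Its paralog elavl3, for HuC, was at 19.97 to 30.8 CPM at 24 hpl (median 26.6) and 11.5 to 27.8 CPM at 36 hpl (median 19.02) and did not pass the test (-0.45 ± 0.21, adjusted p = 0.16, edgeR). The ganglion cell genes rbpms2b and pou4f1 rose by 0.63 ± 0.11 and 0.68 ± 0.14. The connexin gene cx52.6 of horizontal cells fell from between 10.7 and 41.3 CPM to between 3.298 and 9.85 CPM.

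Among genes of axon growth and the cytoskeleton 13 of 38 rose and 5 fell, or 34.2% and 13.2% against 8.85% and 8.0% of all genes. This list shares gap43, stmn2a, stmn2b, klf7b and tubb5 with the ganglion cell list. It also shares atf3, jun and klf6a with the injury list, and sox11a and sox11b with the progenitor list. The falls of atf3 and klf6a given above are thus counted again here. The tubulin gene tuba1a, induced in regenerating axons and in progenitors, was at 228 to 379 CPM at 24 hpl (median 297) and 684 to 980.4 CPM at 36 hpl (median 842) (1.49 ± 0.09, adjusted p = 9.3e-11, edgeR). The actin regulators marcksl1a, marcksl1b and marcksb rose by 1.18 ± 0.08, 1.02 ± 0.07 and 1.31 ± 0.11, each with separate groups.

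Among immune cells, 6 of 40 microglia and macrophage genes rose and 1 fell, with a median of 0.10. That was 15% and 2.5%, against 8.85% and 8.0% of all genes. The fall counted 2 without replicate 6 of 24 hpl or replicate 5 or 6 of 36 hpl. The macrophage gene mpeg1.1 was at 34.4 to 50.97 CPM at 24 hpl (median 39.5) and 20.6 to 55.3 CPM at 36 hpl (median 36.8) and did not pass the test (-0.13 ± 0.20, adjusted p = 0.72, edgeR), after a change of 2.11 from 0 h to 24 hpl. The lysosomal protease gene ctsd and aif1l rose by 0.66 ± 0.14 and 0.64 ± 0.10, both with overlap. Of 12 neutrophil genes 1 rose, mmp9, and 2 fell. Of 11 T and B cell genes 1 fell, with 0 to 2 falls without single libraries. Rises and falls were 8.33% and 16.7% of the neutrophil list and 0% and 9.09% of the T and B cell list. Of 20 interferon response genes 4 fell and none rose, or 20% and 0%. Among the falls were stat1a (-0.50 ± 0.10) and irf1b (-0.87 ± 0.19). The falls of this list numbered 2 over 48 libraries and 0 without the experiment term. Of 33 genes of p53 and apoptosis 4 rose and 2 fell, or 12.1% and 6.06%, near the 8.85% and 8.0% of all genes. The proapoptotic gene bida rose from between 12.9 and 22.8 CPM to between 25.3 and 41.8 CPM, and ddb2, a light-induced gene of DNA repair in zebrafish, fell from between 70.5 and 116 CPM to between 30.4 and 38.97 CPM, both with no overlap.

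Vessel genes gave 2 rises and 3 falls among 23, or 8.7% and 13% against 8.85% and 8.0% of all genes. The falls numbered 5 without replicate 4 of 24 hpl or replicate 6 of 36 hpl. The aquaporin gene aqp8a.1 was at 19.4 to 83.2 CPM at 24 hpl (median 57.7) and 2.91 to 11.9 CPM at 36 hpl (median 9.92), a fall with no overlap (-2.69 ± 0.30, adjusted p = 1.4e-06, edgeR). The tight junction genes cldn5a and cldn5b rose, with 1.11 ± 0.16 and 1.83 ± 0.28. In the matrix list 2 of 31 rose, decorin (dcn, 2.02 ± 0.23) among them, and 2 fell, among them the protease inhibitor gene timp2b (-1.53 ± 0.33). That is 6.45% each way, below the shares of all genes. The falls of that list numbered 6 without replicate 1 of 36 hpl, and the rises 1 without replicate 1, 2, 5 or 6 of 24 hpl or replicate 2 or 4 of 36 hpl. Of 18 pigment epithelium genes 4 rose and none fell, or 22.2% and 0% against 8.85% and 8.0% of all genes. The rises numbered 7 without replicate 6 of 24 hpl and 2 without replicate 2 of 36 hpl. A fall was called without replicate 3 of 24 hpl or replicate 1 of 36 hpl. The melanosome gene pmelb was at 16.6 to 112 CPM at 24 hpl (median 50.8) and 63.4 to 315 CPM at 36 hpl (median 142) (1.45 ± 0.20). The summed level of that list was 1391 to 5575 CPM at 24 hpl and 2518 to 5956 CPM at 36 hpl, and how much pigment epithelium came along with each retina was not tested.

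Genes on the lists of other tissues were read at both times. Summed levels were 93.8 to 157.3 CPM at 24 hpl and 154.8 to 260.2 CPM at 36 hpl for lens, with a narrow overlap. They were 219.6 to 352.1 and 178.5 to 349.9 CPM for muscle, and 93.0 to 209.9 and 66.7 to 237.2 CPM for erythrocytes. For epidermis and cornea they were 883.7 to 1394 and 864 to 1545 CPM. Though the lens sum was higher at 36 hpl, 3 of its 10 tested genes had a log2 fold change above 0, with a median of -0.47. No muscle or erythrocyte gene was called over the 12 libraries. Without replicate 1 of 36 hpl 1 gene of each list was called lower. An erythrocyte gene was called higher without replicate 1 or 4 of 24 hpl or replicate 3 of 36 hpl, and also with the replicate block, a minimum of 20 reads, DESeq2 and limma. In lens, 1 of 10 rose and 1 fell, a fall kept only without replicate 3 of 24 hpl or replicate 1 of 36 hpl among the fits that leave out a library, and the rise was lim2.2, for a membrane protein of lens fibres, at 18.4 to 91.2 CPM at 24 hpl (median 63.4) and 107 to 217 CPM at 36 hpl (median 151). Of 18 genes of epidermis and cornea 1 rose, with 0 to 2 rises and 0 to 2 falls without single libraries. Rises and falls were 10% and 10% of the lens list and 5.56% and 0% of this one. Over all genes they were 8.85% and 8.0%.

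The other genes among the largest falls belong to no list. The kinase gene prkg2 was at 16.7 to 40.7 CPM at 24 hpl (median 22.6) and 0 to 6.18 CPM at 36 hpl (median 3.01), the neurocalcin gene ncaldb at 89.5 to 220.1 CPM at 24 hpl (median 127) and 14.3 to 38.4 CPM at 36 hpl (median 22.6) and the organic anion transporter gene abcc2 at 56.9 to 142 CPM at 24 hpl (median 107) and 6.98 to 40.2 CPM at 36 hpl (median 18.8). All 3 were separate, with changes of -3.10 ± 0.36, -2.54 ± 0.17 and -2.45 ± 0.20.

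**Figure D5:**
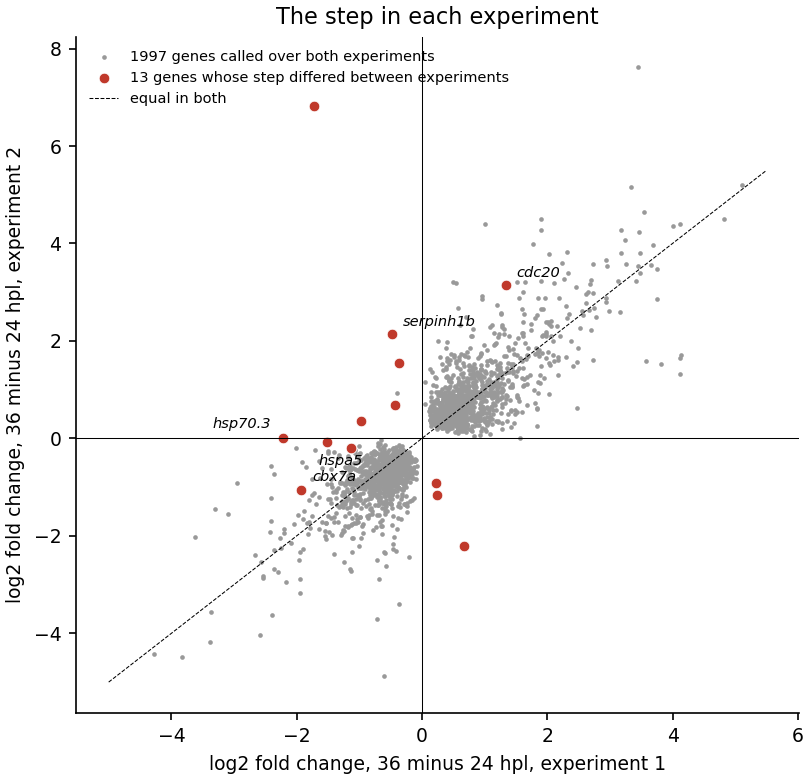
Log2 fold change of 36 over 24 hpl in experiment 2 against experiment 1 for the 1997 called genes in grey and, in red, 13 genes whose step differed between the experiments. Of the called genes, which were selected by the fit over both experiments, 1995 have the same sign in both. The genes hsp70.3 and hspa5 lie far below 0 in experiment 1 and near 0 in experiment 2.

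The 2 experiments, as taken here, share no fish, and each gives the step on its own with 3 libraries per time. Experiment 1 alone called 1232 genes and experiment 2 alone 921, of which 509 were called in both, all 509 in the same direction. Of the 1997 genes called over both, 1995 had the same sign in each. Those genes were selected by the fit over both experiments, which favours a shared sign, so this count is no separate check. The difference of the step between experiments, tested as an interaction, passed for 13 genes, 0.110% of those tested. Without replicate 4 of 24 hpl this count was 76, and without other single libraries it was 3 to 12. They were serpinh1b, hspa5, hsp70.3, rsrp1, zpr1, slc20a1b, cplx4a, adat2, p4ha2, cbx7a, tmem54a, zbtb16a and cdc20. The collagen chaperone gene serpinh1b changed by -0.48 in experiment 1 and 2.14 in experiment 2 (interaction adjusted p = 0.0024, edgeR). Over both it did not pass the test (0.76 ± 0.35, adjusted p = 0.15), though it did without replicate 1 of 24 hpl or replicate 3 of 36 hpl, at adjusted p of 0.037 and 0.041. For the endoplasmic chaperone gene hspa5 the values were -1.52 and -0.08 (adjusted p = 0.0024). Of the mitosis genes only cdc20 was among the 13, with 1.34 and 3.15, both upward.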

How the data were processed

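Single left retinas were profiled by 3′ mRNA-seq. The authors used STAR for alignment and HTSeq for gene counts, and the versions are not given in the sources used here. The count tables hold deposited raw counts of 15245 genes, of which 507 had no read in the 12 libraries. The deposited pseudo-count signal was scaled by the authors in edgeR and was used for 1 alternative only, without 12 entries that a spreadsheet had turned into dates. The deposited columns of fold change, mean level and test results were not used, nor were 78 per-sample columns.

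A gene was tested if 6 or more of the 12 libraries held 5 or more of its reads (11853 genes), with edgeR 4.0.16 (R 4.3.3), with TMM scaling, quasi-likelihood fits of time and experiment, and Benjamini-Hochberg adjustment at 0.05. The steps before and after were fitted over 48 libraries. The gene lists and the members named were chosen with earlier results of these data known. Some genes are on several lists and are counted in each. Named genes were the 10 largest changes each way among called genes of at least 20 CPM in the higher group with no overlap, up to 4 members per list and direction with the smallest adjusted p, and genes the study names. Others given here, such as those of the interaction and single members with overlap, were chosen after their values were seen.

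The study's methods give 2 experiments of 3 fish per group, and neither they nor the labels assign libraries to them. Replicates 1 to 3 were taken as experiment 1 and 4 to 6 as experiment 2. At both times the submitters named the raw reads of replicates 1 to 3 by a different pattern from those of 4 to 6. These names give no experiment. Deviations of same-numbered libraries from their group means correlated at 0.123 to 0.487, and at -0.072 to 0.042 once this experiment term was removed. Nothing says that same-numbered fish were otherwise matched. Each library is 1 fish, and the lowest chi-square per degree of freedom between replicates was 3.33, so none was counted as a repeat. Alternatives were another library set, no experiment term, replicate block, DESeq2 1.42.0, other scalings and filters, limma 3.58.1 on log2 pseudo-counts plus 1, each experiment alone and leaving out each library. Alternatives for the neighbouring steps, the interaction and the list counts were chosen after seeing the data. Promoter motifs were not searched, since no sequences were used here.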

Additional observations from a re-analysis of the deposited data

Results flagged for a closer look

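In 6 of 280 groups of 6 libraries examined, 1 library stood apart from the other 5. A rate of 1 in 20 would give 14, but that rate holds for like libraries and unselected genes. Each group here mixes the experiments, and many genes were chosen by their test results, so the counts cannot be compared. At 24 hpl these were replicate 4 for glulb, at 791 CPM, replicate 4 for tyms, at 51.5 CPM, and replicate 5 for opn1lw2, at 119 CPM, each the highest of its group. At 36 hpl they were replicate 3 for pdcb, the highest at 57.2 CPM, and replicate 4 for bida, the lowest at 25.3 CPM, and for cx52.6, the lowest at 3.3 CPM.

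The step from 24 to 36 hpl differed between the experiments by the interaction test of edgeR for 5 genes named in the text. The log2 fold change in experiment 2 minus that in experiment 1 was 2.63 for serpinh1b, 2.23 for hsp70.3, 1.82 for cdc20, 1.45 for hspa5 and 0.88 for cbx7a.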

How the results depend on the processing

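Counts of 1049 rises and 948 falls stayed within 1.5 times in the fits over 48 libraries (810 and 687), with DESeq2 (1158 and 1142), RLE scaling, library totals, other filters and limma. They moved to 559 and 506 without the experiment term, 674 and 558 in experiment 1 alone, and 468 and 453 in experiment 2 alone, which hold fewer libraries. Leaving out single libraries gave 787 to 1057 rises and 765 to 1075 falls. With the replicate block they were 907 and 827, and the block changed no call of a named gene other than pde6h and tfap2a. The 13 genes that differed between experiments became 39 with DESeq2, 22 with a filter of at least 1 read, 7 with limma, and 3 to 76 without single libraries. The cause of these changes was not tested. Counts of the neighbouring steps stayed within 1.5 times.

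Leaving out single libraries gave 1536 values of the 128 called genes, of which 1513 kept call and direction and 23 lost the call. In the other settings 1352 of 1408 kept both, 55 lost the call and 1 reversed, hsp70.3 at 0.01 in experiment 2 alone. The other reversals were of genes not called. In experiment 2 alone these were gfap at 0.09 and insm1a at -0.36, and in experiment 1 alone notch1b at 0.01, sagb at 0.06, serpinh1b at -0.48 and opn1mw2 at -0.19. For opn1mw2 the value was -0.04 over 48 libraries, -0.04 without the experiment term, -0.20 with the block and -0.14 with limma. Without single libraries it ran from -0.43 to -0.01 where negative, that of sagb from 0.01 to 0.07 where positive, and over all 12 such fits opn1mw2 ran from -0.43 to 0.28, and gngt2b from -0.28 to 0.02, the latter without replicate 1 of 36 hpl. Wide standard errors limit what these 12 libraries show of opn1mw2 (0.05 ± 0.46) and serpinh1b (0.76 ± 0.35).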
